A study of Mus musculus with 16 samples.

Results

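The let-7 miRNAs described here are let-7a, let-7b, let-7c, let-7e and let-7f, which come from 8 mouse hairpin genes among the 1174 annotated in GENCODE release M21. Copies of the same name were summed, so the 8 genes gave 5 of 1087 names and 10 arms, and all 10 arms entered the tests. Members were chosen by name: reads of 18 to 26 nt that matched one of these hairpins without mismatch, with hairpin reads of 27 nt or more kept as a second readout.

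The study sequenced small RNA from mouse mesenchymal stem cells of strain C57BL/6, with 16 libraries in 8 groups of 2. Wild-type cells (Dicer f/f) and knockout cells (Dicer -/-) both received mCherry, a red fluorescent protein. The other 6 groups were Dicer -/- cells that received human Dicer (hsDicer), or a human Dicer mutated as D1320A, as D1709A, at both of these residues (D1320A/D1709A, the double mutant), as K70A, or as Y971A/Y972A. The question was what each part of Dicer contributes to the cutting of precursors in cells. All mutants were transfected human proteins acting on mouse precursors, and the labels do not give the level of each protein or say whether replicates were separate cultures. The p-values therefore measure the spread between these libraries, which may be technical.

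The let-7 family is among the most conserved miRNA families of animals and restrains growth-promoting genes such as Ras, Myc and Hmga2 in differentiated cells. Its primary transcript is first cut by Drosha, and the resulting hairpin is then cut by Dicer near the loop, which frees a 5p and a 3p strand. For let-7 the 5p strand is the one mostly kept by Argonaute. Dicer has a pair of catalytic sites: the RNase IIIA domain, changed in D1320A, cuts the 3p strand, and the RNase IIIB domain, changed in D1709A, cuts the 5p strand. The PAZ domain, changed in Y971A/Y972A, anchors the end of the precursor, and K70A lies in the ATP-binding part of the helicase domain.

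The mature 5p strands are printed because their likeness sets which reads can be told apart. They are RefSeq sequences (GRCm38), with the seed, bases 2 to 8, in capitals:
let-7a-5p: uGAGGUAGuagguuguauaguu
let-7b-5p: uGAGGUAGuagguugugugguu
let-7c-5p: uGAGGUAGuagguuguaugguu
let-7e-5p: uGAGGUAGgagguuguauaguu
let-7f-5p: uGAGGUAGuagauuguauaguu

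All 5 share 1 seed, GAGGUAG. The 3p strands do not, as the following ones show:
let-7e-3p: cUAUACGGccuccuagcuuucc
let-7c-1-3p: cUGUACAAccuucuagcuuucc
let-7c-2-3p: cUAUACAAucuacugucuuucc
let-7a-1-3p: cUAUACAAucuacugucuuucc

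The last pair are identical, so reads of that strand cannot be given to let-7a or to let-7c and were left out of the counts by name. They numbered 550 and 90 in the D1709A libraries, 87 and 28 in D1320A, 0 and 127 with human Dicer, and 1 and 848 in wild type (replicates 1 and 2).

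Hairpins of 3 loci carried most of the long reads described further on. They are given whole, with both mature strands in capitals:
Mirlet7c-2: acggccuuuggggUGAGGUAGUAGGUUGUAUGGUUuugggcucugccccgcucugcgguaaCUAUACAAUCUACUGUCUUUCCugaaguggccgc
Mirlet7c-1: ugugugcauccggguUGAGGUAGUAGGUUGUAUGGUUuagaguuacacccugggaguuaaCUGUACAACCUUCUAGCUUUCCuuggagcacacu
Mirlet7e: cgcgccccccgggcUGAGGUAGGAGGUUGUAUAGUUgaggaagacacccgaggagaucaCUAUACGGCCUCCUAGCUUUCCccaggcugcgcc

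Mirlet7c-2 (chr15:85706603-85706697, plus strand, GRCm38) lies in an exon of the noncoding gene Lncppara, together with Mirlet7b (chr15:85707319-85707403). Mirlet7c-1 (chr16:77599657-77599750, plus strand) lies in an intron of the noncoding gene Mir99ahg, and Mirlet7e (chr17:17830352-17830444, plus strand) in an intron of Spaca6. Mirlet7a-1 (chr13:48538179-48538272) and Mirlet7f-1 (chr13:48537829-48537917) both lie in exons of the minus-strand noncoding gene 6720427I07Rik. Mirlet7a-2 (chr9:41536716-41536811, plus strand) is intronic in 3110039I08Rik, and Mirlet7f-2 (chrX:151912346-151912428, plus strand) is intronic in Huwe1. Between the annotated strands lie 23 bases in Mirlet7a-2, Mirlet7c-1 and Mirlet7e, and 26 to 34 bases in the other 5.

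Depth was 10331036 to 20502254 inserts of 15 nt or more per library, and levels are given as reads per 1000000 inserts (CPM). Replicate 1 was sequenced to 41 nt and replicate 2 to 51 nt in all 8 groups, so the replicate number also marks read length. Inserts were trimmed where at least 5 adapter bases were read, which shows whole inserts up to 36 and 46 nt. For reads of the let-7 hairpins 1 adapter base after the matching stretch was enough, so their ends could be seen up to 40 and 50 nt. Wild-type inserts were miRNA reads for 47.4% and 37.5%, those of the knockout for 1.54% and 0.293%, and those of the double mutant for 0.789% and 0.356%. The 4 mesenchymal marker names (miR-143, miR-145a, miR-199a and miR-214) summed to 9426 and 11224 CPM in wild type, while markers of blood (0 and 0.780 CPM), pluripotent cells (0 and 0) and liver (0 and 0) were at or near 0. Markers of neurons (0 and 137 CPM), muscle (0.231 and 112 CPM, with miR-1a and miR-133a at 0) and endothelium (66.0 and 298 CPM) were higher in replicate 2, and their part in the let-7 levels was not tested. Dicer1 transcripts were not analysed here. Counting intervals and floors quoted in the text cover counting error only.

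The summed 5p level of the 5 names was highest by mean in wild type and lowest in D1709A. It was 59542 and 18138 CPM in wild type, 37217 and 7366 CPM with human Dicer, and 38905 and 4191 CPM with K70A. Y971A/Y972A gave 8293 and 965 CPM, and D1320A gave 7253 and 1868 CPM. The 3 lowest groups were the double mutant at 715 and 121 CPM, the knockout at 244 and 165 CPM, and D1709A at 236 and 68.6 CPM. In all 8 groups the library of 41-nt reads, replicate 1, was the higher. By mean the order ran from wild type (38840 ± 29277 CPM, SD, n = 2) through human Dicer, K70A, Y971A/Y972A, D1320A, the double mutant and the knockout to D1709A (152 ± 118 CPM, SD, n = 2). Neighbours in that order overlapped in their libraries at each step but 1, between D1320A and the double mutant, where the lowest D1320A library was above both double-mutant libraries. That step was not tested.

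**Figure D1:**
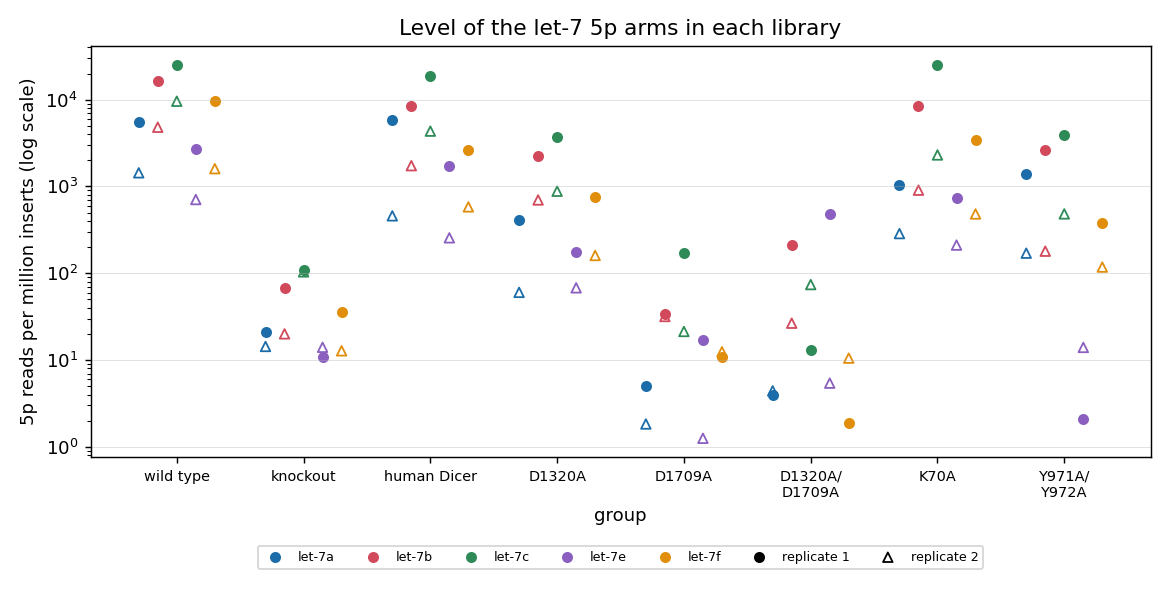
Reads of each let-7 5p arm in CPM, on a log scale, by group; filled circles are replicate 1 and open triangles replicate 2, each point 1 library. The let-7c points of wild type lie at 25207 and 9584 CPM and those of D1709A at 169 and 21.3 CPM.

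Loss of Dicer was compared first. The edgeR quasi-likelihood test over all 539 arms called 4 of the 5 let-7 5p arms lower in the knockout than in wild type, a direction that turned for let-7c-5p under DESeq2 scaling, and none of the 3p arms. Over all arms tested 5.75% were called lower and 0% higher. The most abundant member, let-7c-5p, had 25207 and 9584 CPM in wild type and 108 and 104 CPM in the knockout. The groups did not overlap, and its log2 change was -7.36 ± 1.37 (SE; adjusted p = 1.34e-05, edgeR). Next in level, let-7b-5p had 16538 and 4810 CPM in wild type against 68.0 and 20.04 CPM. It fell by 7.92 ± 1.67 on the log2 scale (adjusted p = 0.000154, edgeR). let-7f-5p had 9604 and 1602 CPM against 36.1 and 12.8 CPM, a log2 change of -7.84 ± 2.07 (adjusted p = 0.00599, edgeR). let-7a-5p had 5514 and 1436 CPM against 21.3 and 14.3 CPM, a log2 change of -7.61 ± 2.14 (adjusted p = 0.0114, edgeR). For these arms too every wild-type library was above both knockout libraries.

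The lowest of the 5, let-7e-5p, had 2679 and 707 CPM in wild type and 10.7 and 14.0 CPM in the knockout, and its log2 change of -7.09 ± 2.54 did not pass (adjusted p = 0.0732, edgeR). In a fit with the replicate number, and so read length, as a term it passed (-6.40, adjusted p = 0.0437, edgeR). The median log2 change of all 539 arms was -6.95, so the 5 members lay 0.14 to 0.97 below the median arm. Scaling by snoRNA and snRNA reads called 4 let-7 arms lower too, among 12 called over all arms, with log2 changes of the 5 5p arms from -9.42 to -9.01. Under TMM, which took the summed counts of the tested arms as library size in place of inserts, the 5 changes ran from -3.26 to -2.30. None was called. With DESeq2 size factors, which moved the median of all arms by 6.95, no let-7 arm was called and let-7c-5p (0.14) and let-7e-5p (0.47) had the opposite sign. Without wild-type replicate 1 or knockout replicate 1 the count of called let-7 arms was 2, and without knockout replicate 2 it was 1.

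The let-7 reads left in the knockout differed between its libraries. In replicate 1 they were 220 (let-7a), 703 (let-7b), 1115 (let-7c), 111 (let-7e) and 373 (let-7f). Set against wild-type replicate 1, these are 0.231%, 0.246%, 0.256%, 0.240% and 0.225% of the reads. All 5 names thus stood at nearly the same fraction of the wild-type library. Values of reads outside the miRNAs were set beside these, by a choice made after they were seen: 149 distinct sequences counted at least 2000 times in the first wild-type library and absent from every replicate 2 library. All 149 also occurred in knockout replicate 1, at 0.236% of their wild-type count. In replicate 2 the names ranged from 0.324% (let-7b) to 1.55% (let-7e) of wild type. The part of reads carried between libraries in the knockout values was not tested.

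Rescue with human Dicer was compared next. Against the knockout 4 of 5 let-7 5p arms were called higher with human Dicer, a direction that turned for let-7b-5p, let-7c-5p and let-7f-5p under DESeq2 scaling, beside 5.94% of all arms called higher and 0% lower. let-7c-5p rose from 108 and 104 CPM to 18675 and 4336 CPM, by 6.76 ± 1.33 on the log2 scale (adjusted p = 6.83e-05, edgeR). let-7b-5p reached 8385 and 1734 CPM, let-7a-5p 5797 and 459 CPM, and let-7f-5p 2642 and 581 CPM. Their log2 changes were 6.84, 7.46 and 6.04, with adjusted p of 0.00142, 0.0176 and 0.0301 (edgeR). let-7e-5p reached 1718 and 256 CPM (log2 change 6.31, adjusted p = 0.121, edgeR). In all 5 the human Dicer libraries lay above both knockout libraries. The median of all arms was 5.82, and DESeq2 scaling, which removed that median, called none and gave the opposite sign for let-7b-5p, let-7c-5p, let-7e-5p and let-7f-5p (-0.06, -0.21, -0.80 and -0.86). Leaving out knockout replicate 1 left 2 called arms, and leaving out knockout replicate 2 or human Dicer replicate 1 left 1.

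Between human Dicer and wild type no let-7 arm was called, 0 of the 10 had an unadjusted p under 0.05 in edgeR, and 0% of all arms were called in either direction. Both groups overlapped for each of the 5 5p arms. Human Dicer replicate 1 held let-7a-5p at 5797 CPM, close to the 5514 CPM of wild-type replicate 1, while let-7f-5p stood at 2642 against 9604 CPM. The adjusted p of all 10 arms was 1 (edgeR), which does not show that the levels were alike.

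The single-site mutants were compared with human Dicer. With D1709A, the change in the RNase IIIB domain, 4 of 5 let-7 5p arms were called lower than with human Dicer, beside 3.34% of all arms called lower and 0% higher. let-7c-5p had 169 and 21.3 CPM with D1709A against 18675 and 4336 CPM, a log2 change of -6.92 ± 1.34 (adjusted p = 6.75e-05, edgeR). let-7b-5p had 34.4 and 31.8 CPM against 8385 and 1734 CPM, a change of -7.26 ± 1.63 (adjusted p = 0.000893, edgeR). let-7a-5p, at 4.9999 and 1.83 CPM, changed most, by -9.83 ± 2.34 (adjusted p = 0.00247, edgeR). In each case the D1709A libraries lay below both human Dicer libraries.

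let-7f-5p had 10.8 and 12.5 CPM with D1709A, a log2 change of -7.12 ± 2.01 (adjusted p = 0.0142, edgeR). let-7e-5p had 17.0 and 1.26 CPM, and its change of -6.75 ± 2.50 did not pass (adjusted p = 0.146, edgeR). With the replicate number as a term it passed (-6.93, adjusted p = 0.0487, edgeR). All 5 changes kept their sign under TMM, snoRNA and snRNA scaling and DESeq2, but the count called fell to 1, 0 and 0. Over all arms these settings called 3, 0 and 35, the last with 30 higher. Under snoRNA and snRNA scaling the changes were larger than by inserts, from -10.51 (let-7a-5p) to -7.29 (let-7e-5p), with adjusted p from 0.0522 to 0.265 (edgeR). Under DESeq2 they were smaller, from -3.66 (let-7a-5p) to -0.81 (let-7e-5p). Without D1709A replicate 2 no arm was called, without D1709A replicate 1 there was 1, and without human Dicer replicate 1 there were 2. Against the knockout no let-7 arm was called with D1709A, where 0.557% of all arms were called higher and 0% lower; 0 of the 10 let-7 arms had an unadjusted p under 0.05 in edgeR. DESeq2 called 65 of all arms between D1709A and the knockout, 51 of them higher, and these included 2 let-7 3p arms. They were let-7a-3p (115 and 0 reads against 0 and 0) and let-7e-3p (775 and 268 reads against 1 and 0). Their adjusted p was 0.00856 and 0.0499 (DESeq2). The call of let-7a-3p rests on reads of D1709A replicate 1 alone.

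The 3p strand was counted separately. In D1709A its summed level was 69.8 and 26.5 CPM, against 0 and 29.5 CPM with human Dicer and 2.54 and 171 CPM in wild type. By counting error alone the 0 of human Dicer replicate 1 allows up to 0.208 CPM, the value of 3 reads. Single sequences carried many reads in some replicate 1 libraries, so the true limit may be higher. D1709A replicate 2 lay below human Dicer replicate 2, so these groups overlapped. Most of the D1709A 3p reads were let-7e-3p, with 775 and 268 of 893 and 274 reads (60.5 and 25.9 CPM). The edgeR test by inserts called no let-7 3p arm in any of the 10 comparisons, and for let-7e-3p the log2 change of 2.34 ± 3.91 between D1709A and human Dicer had an adjusted p of 0.932 (edgeR).

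As a share of let-7 reads on either arm, the 5p strand took 77.2% and 72.2% in D1709A. In the other 14 libraries it took 98.0% or more. D1320A had 99.7% and 99.5%, human Dicer 100% and 99.6%, and wild type 99.996% and 99.1%. An exact 2-sided permutation test of D1709A against human Dicer gave p = 0.333, the smallest value that 2 libraries against 2 allow. The arm by group interaction, tested by edgeR over 183 names, called 0% of ratios in each of the 5 comparisons made. limma, run on log2 ratios, called no let-7 ratio either, but 10 of the 183 between D1320A and human Dicer and 48 between D1320A and D1709A. For let-7e the edgeR interaction gave a log2 change in the 5p to 3p ratio of -12.75 ± 7.12 between D1709A and human Dicer (adjusted p = 0.954, edgeR). Counting the let-7a and let-7c reads of identical sequence for both names in equal parts lowered the mean 5p share of D1709A from 74.7% to 66.9%. Allowing up to 2 unmatched 3′ bases lowered it to 50.8%, so the size of this share depends on how reads were matched.

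**Figure D2:**
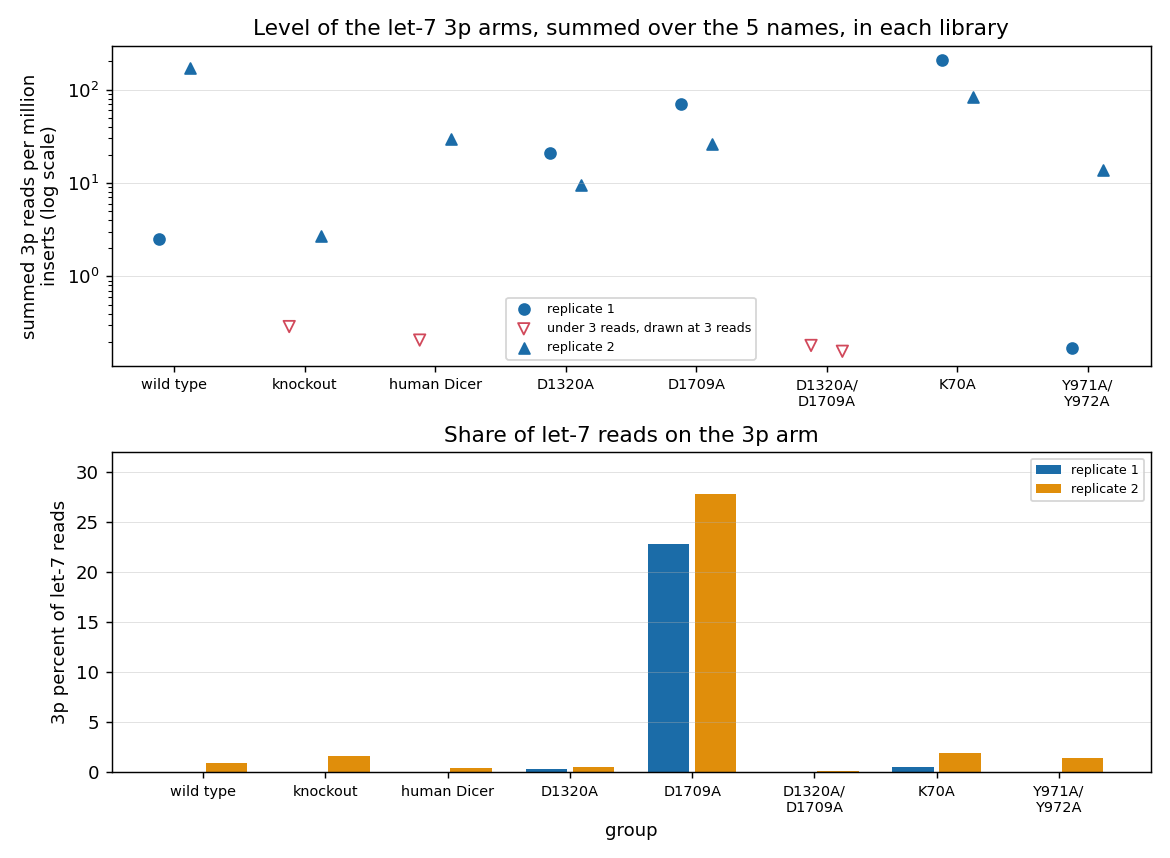
Top, summed let-7 3p reads in CPM on a log scale, with libraries of under 3 reads drawn as open triangles at the value of 3 reads. Bottom, the 3p percentage of let-7 reads on either arm in each library; D1709A stands at 22.8% and 27.8% and the other libraries at 1.95% or less.

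With D1320A, the change in the RNase IIIA domain, no let-7 arm was called against human Dicer. let-7c-5p had 3672 and 881 CPM against 18675 and 4336 CPM, a log2 change of -2.34 ± 1.09 (adjusted p = 0.525, edgeR). let-7b-5p had 2248 and 699 CPM, let-7f-5p 750 and 160 CPM, let-7a-5p 408 and 60.2 CPM and let-7e-5p 175 and 67.9 CPM. For let-7a-5p, let-7c-5p and let-7e-5p both D1320A libraries lay below both human Dicer libraries, and for let-7b-5p and let-7f-5p the groups overlapped. The 5 log2 changes ran from -3.74 (let-7a-5p) to -1.78 (let-7b-5p), and 2 of the 10 arms had an unadjusted p under 0.05 (let-7a-5p and let-7c-5p), where 2.04% of all arms were called lower and 0% higher. Under DESeq2 scaling let-7b-5p, let-7c-5p, let-7e-5p and let-7f-5p had the opposite sign (1.12, 0.48, 0.01 and 0.98), and no let-7 arm was called.

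Against the knockout, D1320A was called higher for let-7c-5p, whose log2 change was 4.43 ± 1.19 (adjusted p = 0.0275, edgeR), where 0.742% of all arms were called higher and 0.186% lower. let-7b-5p had a change of 5.06 ± 1.47 and missed the threshold (adjusted p = 0.0512, edgeR). With the replicate number as a term it passed (5.09, adjusted p = 0.0017, edgeR), as did let-7c-5p (3.86, adjusted p = 0.00166, edgeR). For both arms the D1320A libraries lay above the knockout libraries. The call of let-7c-5p was lost under snoRNA and snRNA scaling, where its change was 4.78 (adjusted p = 0.686, edgeR), under TMM (1.17) and under DESeq2 (0.27). Under DESeq2 let-7a-5p and let-7e-5p had the opposite sign (-0.49 and -0.79). The call of let-7c-5p was also lost when replicate 1 of wild type, the knockout, D1320A or K70A was left out, or replicate 2 of wild type or the knockout.

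Long reads running from the loop into the 3p strand were most frequent in both D1320A libraries. Reads that began within 2 nt of the base after the 5p strand and ran at least 5 nt into the 3p strand numbered 61794 and 6621, which is 4091 and 544 CPM. The other 14 libraries held 0 to 49 such reads, at most 3.53 CPM. Both D1320A libraries were thus above all others, and the exact permutation p against human Dicer was 0.333, the smallest possible. Of these reads 98.1% and 100% began exactly at the first base after the annotated 5p end. Set against the mature 5p reads, they made up 36.1% and 22.5% of the sum of both kinds.

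The reads are shown because they carry the 2 ends of interest. The first is the most frequent replicate 2 read of this class from Mirlet7c-2 and the second the most frequent read that began inside the loop of Mirlet7c-1, with 3p-strand bases in capitals:
Mirlet7c-2, 48 nt, D1320A replicate 2: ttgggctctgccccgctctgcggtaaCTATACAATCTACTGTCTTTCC
Mirlet7c-1, 33 nt, D1320A replicate 1: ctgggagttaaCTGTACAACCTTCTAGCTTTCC

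The first was read 2492 times and holds the whole loop joined to the whole 3p strand. In replicate 2, where ends could be seen up to 50 nt, 3013 of 6071 such reads whose end was seen ended within 2 nt of the 3p end, and 3058 ended before it. Loop and 3p strand together are longer than 50 nt for Mirlet7a-1, Mirlet7b and Mirlet7f-1, so whole reads of these loci could be missed. A single Mirlet7b sequence with no seen end held 487 reads, and these counts give no share over all loci. In replicate 1 the 41-nt reads could not show that end, and all 16602 whose end was seen ended before the 3p end. Lengths of the reads with a seen end ran from 31 to 50 nt in replicate 2.

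Mirlet7c-2 gave 48233 and 5462 of these reads, or 78.1% and 82.5%. The locus Mirlet7a-1 gave 6110 and 378, Mirlet7f-2 gave 3829 and 85, Mirlet7f-1 gave 1601 and 62, and Mirlet7b gave 1366 and 548. The 3 loci with 23 bases between their strands gave few: Mirlet7e 337 and 0, Mirlet7c-1 255 and 86, and Mirlet7a-2 63 and 0. Together these 3 held 655 and 86 reads, against 61139 and 6535 from the 5 loci with longer loops, a grouping made after the values were seen. Mature 5p reads of the copies of a name are identical, so the share of each locus in the 5p level cannot be told apart.

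A second class began inside the loop and ended at the 3p end. It held 9661 and 450 reads in D1320A (640 and 37.0 CPM) and at most 4.95 CPM in any other library. Mirlet7c-1 gave 9410 and 385 of them, and the 33-nt read printed above accounted for 7973 and 314. The short 3p reads of D1320A also mostly began before the annotated start. Of its 320 and 117 let-7 3p reads of 18 to 26 nt, 3 and 1 began at the annotated 3p start, while 185 and 116 began 1 to 6 nt before it. In D1709A 717 of 893 and 273 of 274 began at the annotated start, and in wild type 22 of 44 and 3238 of 3511. With human Dicer replicate 2 this was 318 of 554, with 40 beginning 1 to 6 nt before it and 196 farther into the loop, and replicate 1 had no 3p read.

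**Figure D3:**
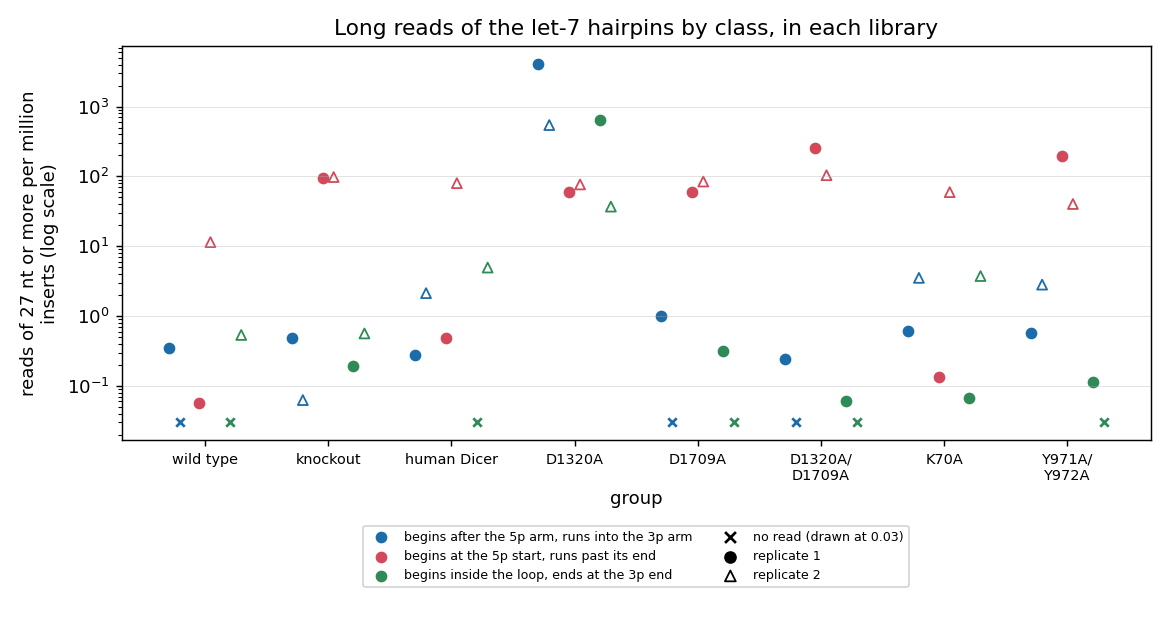
Reads of 27 nt or more of the let-7 hairpins in CPM, on a log scale, in 3 classes by group; filled circles are replicate 1, open triangles replicate 2, and crosses mark libraries with no read of a class. Reads that begin after the 5p arm reach 4091 and 544 CPM in D1320A and at most 3.53 CPM elsewhere.

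Reads that kept the 5p strand joined to the loop formed the remaining long class. They began within 2 nt of the 5p start and ran at least 5 nt past its end, at 59.6 and 84.5 CPM in D1709A, 94.3 and 97.9 CPM in the knockout, and 259 and 104 CPM in the double mutant. D1320A had 60.8 and 76.7 CPM, human Dicer 0.486 and 80.0 CPM, and wild type 0.0578 and 11.5 CPM. The CPM values of D1709A and human Dicer overlapped (exact permutation p = 0.667). Against the mature 5p reads the class was 20.2% and 55.2% of the sum of both in D1709A, 27.9% and 37.2% in the knockout, and 26.5% and 46.2% in the double mutant. It was 0.831% and 3.94% in D1320A and 0.00130% and 1.07% with human Dicer. Some long reads fell in none of these classes: 448 and 75 in D1709A, 0 and 343 in the knockout, and 2011 and 512 in D1320A. In D1709A replicate 1, 209 of them were a 27-nt Mirlet7b sequence that ran from the loop into the 3p strand.

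Single sequences carried several of these values in replicate 1. In knockout replicate 1, all but 2 of 974 reads were a single 41-nt Mirlet7c-2 sequence. In double-mutant replicate 1, 4228 of 4256 were a single 41-nt Mirlet7e sequence, and all 3484 reads of Y971A/Y972A replicate 1 were a single 32-nt Mirlet7b sequence. In D1709A the class came mostly from Mirlet7e (590 of 763 and 546 of 875). In D1709A replicate 2, 98 let-7e reads held the 5p strand and loop and ended within 2 nt of the start of the 3p strand, a count taken after the data were seen. Such a read is 45 nt long for the 3 loci with 23 bases between their strands and 48 to 56 nt for the other 5, so reads from those 5 could be seen whole only in part or not at all, and names cannot be compared. Over all 5 names the count was 39 in D1320A, 84 in K70A (33 of them let-7e) and 0 in the other 5 replicate 2 libraries. It was 0 in all replicate 1 libraries, where a read of that length cannot be seen whole.

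The double mutant D1320A/D1709A had 4 of 5 let-7 5p arms called lower than human Dicer, a direction that turned for let-7b-5p, let-7c-5p and let-7f-5p under DESeq2 scaling and for let-7b-5p under TMM, beside 7.98% of all arms called lower and 0% higher. let-7c-5p had 13.1 and 74.0 CPM against 18675 and 4336 CPM, a log2 change of -8.04 ± 1.41 (adjusted p = 2.06e-06, edgeR). let-7a-5p had 3.95 and 4.42 CPM, let-7f-5p 1.88 and 10.5 CPM and let-7b-5p 213 and 26.6 CPM. Their log2 changes were -9.54, -8.02 and -5.40, with adjusted p of 0.00178, 0.00417 and 0.00701 (edgeR). In these 4 arms both double-mutant libraries lay below both human Dicer libraries. In replicate 1 the reads of let-7a, let-7c and let-7f were 65, 216 and 31, which is 0.0778%, 0.0802% and 0.0814% of those of human Dicer replicate 1, while let-7b stood at 2.90% and let-7e at 32.2%. The part of reads carried between libraries in these values was not tested. The median of all arms was -5.98, and with the scaling that removes it, let-7b-5p, let-7c-5p, let-7e-5p and let-7f-5p had the opposite sign (3.96, 0.07, 7.54 and 0.11 under DESeq2), as had let-7b-5p and let-7e-5p under TMM (0.32 and 3.86). The count called was 2 without either double-mutant library or without human Dicer replicate 1.

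The exception in the double mutant was let-7e-5p, at 484 and 5.42 CPM, with a log2 change of -2.01 ± 2.02 (adjusted p = 0.608, edgeR). DESeq2 called 44 of all arms, 34 of them higher, and these included let-7e-5p (log2 change 7.54, adjusted p = 0.0037, DESeq2). Of its 7962 reads in replicate 1, 7945 were 1 sequence of 26 nt, the 5p strand with 4 further hairpin bases, shown with the 5p strand in capitals:
let-7e read of 26 nt: TGAGGTAGGAGGTTGTATAGTTgagg

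Only 17 reads remained without it. When reads were restricted to those within 2 nt of the annotated ends, an alternative chosen after the data were seen, the log2 change of let-7e-5p was -9.84 (adjusted p = 0.00837, edgeR).

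The 3′ end of the 5p strand is the one that Dicer makes. Of let-7 5p reads, 88.8% and 87.2% ended at the annotated end in wild type, and 95.7% and 92.4% with human Dicer. In D1320A this was 79.4% and 75.7%, and 15.3% and 17.4% ended before the annotated end, against 2.87% and 3.79% with human Dicer. The share ending before the annotated end was thus larger in both D1320A libraries than in both human Dicer libraries. In wild type that share was 6.01% and 9.03%. For the share at the annotated end, D1320A against human Dicer gave an exact permutation p of 0.333. In D1709A 75.9% and 58.4% ended at the annotated end and 19.2% and 23.6% ran 2 nt or more past it. In the double mutant 31.0% and 37.1% ended there and 67.5% and 46.0% ran 2 nt or more past, with the 26-nt let-7e read included.

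Knockout replicate 1 had 89.5% at the annotated end, near wild type, and replicate 2 had 49.4%. In these libraries 0.159% and 32.7% ran 2 nt or more past it, the latter a larger share than in either D1709A library. At the annotated end K70A had 92.9% and 88.0%, and Y971A/Y972A 99.9% and 86.9%. The 5′ end, which Drosha makes, lay at the annotated base in 96.4% to 99.9996% of 5p reads in every library.

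**Figure D4:**
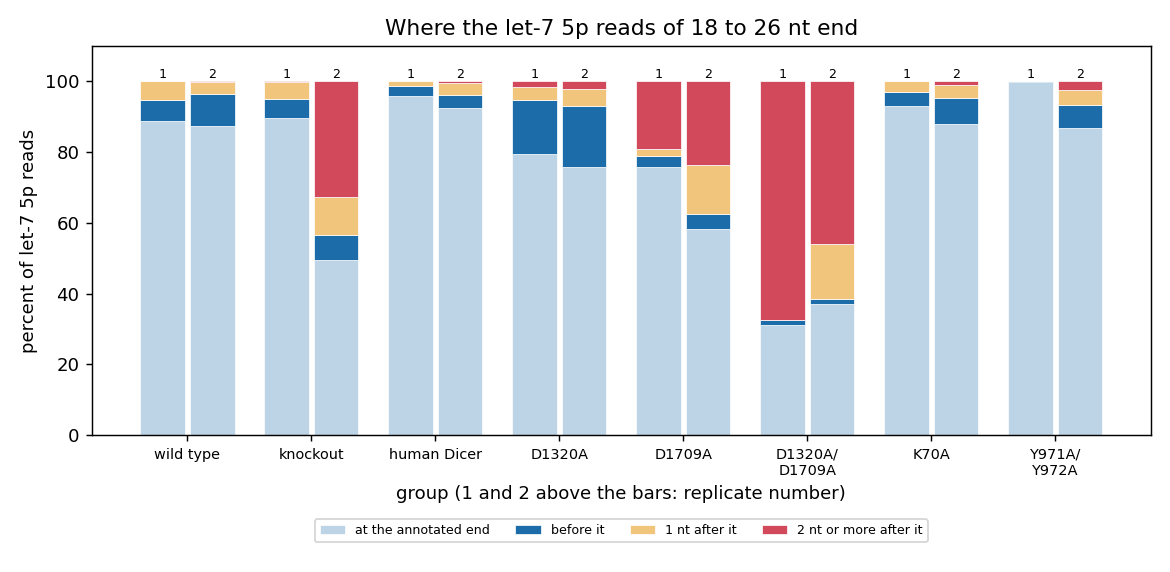
Percentage of let-7 5p reads of 18 to 26 nt that end at, before, 1 nt after or 2 nt or more after the annotated 3′ end, 1 bar per library. The parts that run 2 nt or more past the end take 67.5% and 46.0% in the double mutant and 0.000746% and 0.435% with human Dicer.

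In edgeR neither K70A nor Y971A/Y972A had a let-7 arm called against human Dicer, and in both comparisons 0% of all arms were called in either direction. DESeq2 called 16 of all arms for K70A, none of them let-7, and 24 for Y971A/Y972A. With K70A, let-7c-5p had 25321 and 2305 CPM and let-7b-5p 8412 and 906 CPM, and both overlapped the human Dicer libraries (18675 and 4336 CPM, and 8385 and 1734 CPM). let-7a-5p had 1048 and 286 CPM against 5797 and 459 CPM. None of the 10 arms had an unadjusted p under 0.05 in edgeR. K70A held the highest let-7e-3p level of the 8 groups by mean, at 205 and 33.4 CPM (119 ± 121 CPM, SD, n = 2), and in replicate 1 all 3034 let-7 3p reads were let-7e-3p. Reads with 1 or 2 unmatched bases at the 3′ end were 13.3% and 17.4% of 5p reads with K70A, against 8.61% and 8.80% with human Dicer and 8.14% and 9.09% in wild type. D1709A had 8.67% and 18.4%, the latter from 160 such reads beside 711 that matched whole.

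With the PAZ mutant Y971A/Y972A, let-7c-5p had 3865 and 483 CPM, let-7b-5p 2646 and 180 CPM, let-7a-5p 1402 and 170 CPM and let-7f-5p 378 and 118 CPM. let-7e-5p had 2.09 and 14.0 CPM against 1718 and 256 CPM with human Dicer, a log2 change of -6.94 ± 2.53. The unadjusted p was 0.00602 for let-7e-5p and 0.0272 for let-7c-5p (log2 change -2.40 ± 1.09), and the adjusted p was 1 for both (edgeR). For both arms the higher Y971A/Y972A library was below the lower human Dicer library. DESeq2 called 1 let-7 arm lower, let-7a-3p, with 0 and 0 reads against 0 and 64 (adjusted p = 0.000271). That call rests on reads of human Dicer replicate 2 alone. The 3p reads shared by let-7a and let-7c, left out of this count, went the other way, with 0 and 230 against 0 and 127. Within the family let-7e made up 0.0253% and 1.45% of 5p reads, against 4.62% and 3.47% with human Dicer, and let-7a made up 16.9% and 17.7%, against 15.6% and 6.22%.

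In every library but double-mutant replicate 1, Y971A/Y972A included, the makeup of the family was led by let-7c and let-7b. let-7c made up 42.3% and 52.8% of let-7 5p reads in wild type, 50.2% and 58.9% with human Dicer and 50.6% and 47.2% in D1320A. let-7b followed with 27.8% and 26.5%, 22.5% and 23.5%, and 31.0% and 37.4% in the same groups. In D1709A the libraries disagreed, with let-7c at 71.6% and let-7b at 14.6% in replicate 1 and 31.1% and 46.3% in replicate 2. Double-mutant replicate 1 was 67.6% let-7e, through the 26-nt read. Among all miRNA reads, let-7 took 12.6% and 4.88% in wild type, 15.8% and 8.68% in D1320A, and 0.411% and 0.254% in D1709A.

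**Figure D5:**
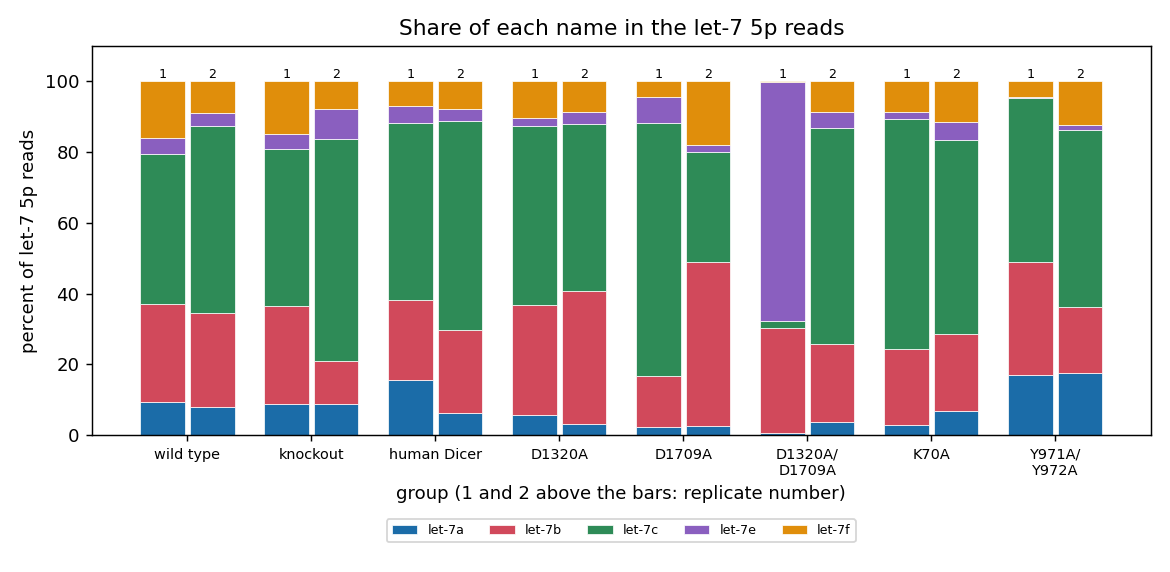
Share of each name in the let-7 5p reads of each library, 1 bar per library. let-7c takes 42.3% and 52.8% in wild type, and let-7e takes 67.6% in double-mutant replicate 1 and 0.0253% and 1.45% in Y971A/Y972A.

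The rest of the family, let-7d, let-7g, let-7i and miR-98, showed 1 of 4 5p arms called lower in the knockout, 1 of 4 higher with human Dicer, 1 of 4 lower in D1709A and 2 of 4 lower in the double mutant. Of its 4 3p arms 1, 1, 0 and 1 were called likewise. Over all arms 5.75%, 5.94%, 3.34% and 7.98% were called in these directions. The median log2 changes of its 5p arms were -7.34, 7.63, -8.25 and -9.40, beside -6.95, 5.44, -4.90 and -5.55 over all 5p arms tested. Of the 5 names that share a transcript or cluster with members (miR-99a, miR-99b, miR-100, miR-125a and miR-125b), 2, 2, 3 and 3 5p arms were called in the same comparisons and directions. For let-7a, b, c, e and f the medians were -7.61, 6.76, -7.12 and -8.02.

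Over the 16 libraries the 5p arms whose log2(CPM + 1) followed the summed let-7 5p level most closely were miR-30a-5p (Pearson r = 0.958), miR-21a-5p (0.956), miR-155-5p (0.939), miR-30d-5p (0.937) and miR-125b-5p (0.927). For the summed 3p level they were miR-30d-3p (0.875), miR-196a-3p (0.868), miR-30e-3p (0.862), miR-23a-3p (0.857) and miR-146-5p (0.845). These points share libraries, depth and the presence or absence of active Dicer, and the values are given as a description.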

How the data were processed

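The deposited values are counts: in each library the authors listed every distinct untrimmed sequence and how often it occurred, judging by the file contents. Per the labels' protocols, RNA was taken with Trizol, gel-selected at 15 to 50 nt and cloned by Illumina's standard procedure; which tools made the lists is not given in the sources used here. Adapter removal needed 12 matching bases anywhere or at least 5 at a read's end, and 1 where the bases before it matched a let-7 hairpin. Library size was the number of inserts of 15 nt or more, save in the alternatives by TMM, by snoRNA and snRNA reads and by DESeq2. TMM factors were applied to the summed counts of the tested arms, so that setting changed the library size too. Reads of 18 to 26 nt were assigned by exact match to 1174 GENCODE M21 hairpins, with arms split at the hairpin midpoint and reads of several names left out. Of 576 arms counted, 539 had 20 reads or more and were tested with edgeR 4.0.16 (R 4.3.3), by quasi-likelihood fits over all 16 libraries with a common biological coefficient of variation of 2.10. There were 10 level comparisons, and 5 comparisons of 5p to 3p ratios over 183 names. Tests were 2-sided, Benjamini-Hochberg adjustment ran over all arms or names, and the threshold was 0.05. Each SE is the log2 change over the root of its F value and is approximate. The fits were also run on simulated counts with a smaller spread than these data, so those runs do not show error rates or power here. Mature and hairpin sequences are RefSeq's (GRCm38), and all 8 hairpins equal those of GENCODE.

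Alternatives covered TMM, scaling by snoRNA and snRNA reads, DESeq2 1.42.0, limma 3.58.1 for ratios (pseudocount 0.5), no low-count filter, a replicate block (the number also marks read length), leaving out each library, splitting shared reads and allowing up to 2 unmatched 3′ bases. Restricting reads to within 2 nt of annotated ends was chosen after seeing the data. All member arms are named, and outside the family the 5 arms most alike by Pearson r. The members and lists were chosen with earlier results of these data known. Counting and plots used Python 3.11.15 (numpy 2.4.6, pandas 2.3.3, scipy 1.17.1, matplotlib 3.10.9).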

Additional observations from a re-analysis of the deposited data

How the results depend on the processing

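Calls of let-7 arms depended on scaling. DESeq2 centres the median of all arms near 0. TMM, with summed arm counts as library size, moved that median by 3.91 in the knockout against wild type. There snoRNA and snRNA scaling moved it by -0.41. The part of the changed library size in the TMM shift was not tested. Under TMM the arms called numbered 0 for the knockout against wild type, 0 for human Dicer against the knockout, 1 for D1709A and 0 for the double mutant (both against human Dicer), and 0 for D1320A against the knockout. Under snoRNA and snRNA scaling human Dicer against the knockout kept 1, and D1709A against human Dicer and D1320A against the knockout gave 0. Over all arms that scaling called 3, 0 and 0 there. DESeq2 gave 0 for the knockout against wild type, human Dicer against the knockout, D1709A against human Dicer and D1320A against the knockout, and 1 for the double mutant (let-7e-5p, higher), 1 for Y971A/Y972A and 2 for D1709A against the knockout. Over all arms DESeq2 called 28, 24, 35, 49, 44, 24 and 65 in the order given. D1320A against the knockout gave 2 with the replicate block, with up to 2 unmatched 3′ bases and with reads within 2 nt of the annotated ends. Over all arms these settings called 10, 6 and 6.

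Signs turned under DESeq2 for let-7c-5p (0.14) and let-7e-5p (0.47) in the knockout against wild type, and for let-7b-5p (-0.059), let-7c-5p (-0.21), let-7e-5p (-0.80) and let-7f-5p (-0.86) in human Dicer against the knockout. They also turned in D1320A against human Dicer for let-7b-5p (1.12), let-7c-5p (0.48), let-7e-5p (0.0091) and let-7f-5p (0.98), and against the knockout for let-7a-5p (-0.49) and let-7e-5p (-0.79). In the double mutant the DESeq2 values were 3.96, 0.067, 7.54 and 0.11 for let-7b-5p, let-7c-5p, let-7e-5p and let-7f-5p, and TMM gave 0.32 for let-7b-5p and 3.86 for let-7e-5p. The median of all arms moved by construction, and other causes were not tested.

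With 1 library left out, called arms ranged from 1 to 5 for the knockout against wild type, 1 to 4 for human Dicer against the knockout, 0 to 4 for D1709A, 2 to 4 for the double mutant and 0 to 2 for D1320A against the knockout. A group left with 1 library was assumed to vary like the others. The labels give same-numbered libraries no shared culture or day, but they share a read length. Correlations of their deviations ran from -0.0088 to 0.434 and passed 0.1 in 18 of 28 pairs of groups, short of every pair. The replicate block called 5 arms for the knockout against wild type, 4 for human Dicer against the knockout, 5 for D1709A and 4 for the double mutant. No let-7 ratio was called under any alternative; over all 183 names limma called 10 ratios for D1320A against human Dicer and 48 for D1320A against D1709A, and the replicate block called 3 for the latter.

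With up to 2 unmatched bases the mean 5p share was 98.6% in wild type, 99.3% with human Dicer, 99.0% in D1320A, 50.8% in D1709A, 99.9% in the double mutant, 97.1% in K70A and 97.9% in Y971A/Y972A, and splitting shared reads gave 66.9% in D1709A. Requiring 10 nt past the site gave 86.3 CPM of reads uncut on the 5p side in the knockout and 50.3 CPM in D1320A.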
